A study of Mus musculus with 6 samples.

Results

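The 67 replication-dependent histone genes of the mouse were examined for H3K4me3 and H3K4me1 in germinal center (GC) B cells. They were taken from 21851 protein-coding genes of the GENCODE M21 annotation (GRCm38) as those whose symbol begins with Hist1h, Hist2h, Hist3h or Hist4, a rule that uses no measured value. All 6 libraries were Mint-ChIP libraries from WT mice, 3 for H3K4me3 and 3 for H3K4me1, and no group was labelled as a mutant. In its GC experiments the study uses WT for mice with a Cγ1-cre allele and no floxed allele, on a C57BL/6J background. The titles of these libraries give WT alone. Mice had received sheep red blood cells, which induce GCs, 8 days before their spleens were collected, and 50000 sorted cells went into every library. Mint-ChIP attaches barcodes to nuclease-cut chromatin before the samples are pooled for immunoprecipitation, so that few cells suffice. The titles and the antibody labels (ab8580 and ab8895) give H3K4me3 and H3K4me1, whereas the protocol text names an antibody against H3K27Ac, and the sorted cells are called centrocytes in the labels and GC B cells in the study's methods. Immunization in the study was at 8 to 12 weeks of age by its methods. Whether the replicates came from separate mice is not given in the sources used here, so the spread between replicates may be technical.

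Replication-dependent histone genes encode the core histones H2A, H2B, H3 and H4 and the linker histone H1 that package newly made DNA in S phase. Most have no introns, and their mRNAs end in a stem-loop in place of a poly(A) tail. They stand in dense clusters in which many near-identical copies are transcribed together, and GC B cells are among the fastest dividing cells of the body. H3K4me3 is found at the promoters of active genes, and H3K4me1 is found at enhancers and on the flanks of active promoters.

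The 67 members comprised 6 H1, 18 H2A, 18 H2B, 12 H3 and 13 H4 genes, with 71 annotated transcription start sites (TSSs). Members up to 100 kb apart were chained into 7 blocks. The largest block lay at chr13:23531050-23763666 and held 29 members, and a block of 18 members lay at chr13:21716143-21833743. Chromosome 13 also held a block of 5 members at chr13:22035568-22043214 and the pair Hist1h2ba and Hist1h2aa. Chromosome 3 held 10 members at chr3:96219865-96269752, chromosome 11 held Hist3h2ba and Hist3h2a, and chromosome 6 held Hist4h4. The median distance from a member to the nearest other coding TSS was 1141 bp, against 22562 bp for other coding genes, and 61 of 67 members had another coding TSS within 5 kb.

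The H3K4me3 lists held 41936 to 46707 peaks. H3K4me1 replicate 1 stood apart from its group with 24136 peaks, against 13923 and 11922 in replicates 2 and 3. The H3K4me3 lists hold broad regions and the H3K4me1 lists narrow ones, so each contrast of the marks includes a contrast of calling modes. Total reads were not used here, so the depth is unknown. The GC B cell markers Bcl6, S1pr2, Mef2b, Fas, Pax5, Cd79a, Cd79b and Ms4a1 each had an H3K4me3 peak within 1 kb of a TSS in 3 of 3 libraries. None of the 3 T cell markers (Cd4, Cd8a, Cd3e) had such a peak in any library, and of 3 myeloid markers only Itgam had one, in 1 library. Of 3 erythroid markers, Hbb-bt and Epor had one in 3 of 3 libraries and Gata1 in none, and the liver marker Alb had none.

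To see how many histone genes carried the promoter mark, peaks were looked for at 3 distances from the TSSs. An H3K4me3 peak lay within 1 kb of a TSS in 60, 57 and 59 of the 67 members in replicates 1, 2 and 3. This is 89.6%, 85.1% and 88.1% of members. The 95% Wilson intervals of 80.0% to 94.8%, 74.7% to 91.7% and 78.2% to 93.8% cover counting error only. They take the members as independent, which neighbours under 1 peak are not. The 51, 49 and 50 members with a covered TSS lay under 30, 29 and 31 peaks, so the intervals are likely too narrow. Among the other 21784 coding genes the shares were 56.8%, 54.4% and 55.4%. In 3 of 3 libraries 57 members had such a peak, against 52.1% of all coding genes, and 7 members had it in none, against 40.6%. The remaining 3 members had it in 1 or 2 libraries, against 7.29%.

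The histone share exceeded that of the other genes by 32.0 ± 1.20 percentage points (SD, n = 3), in the same direction in each library. The exact sign-flip p-value was 0.25 (two-sided, n = 3), which is the smallest that 3 libraries allow, so no comparison within a mark can pass 0.05. The difference was 17.7 points among peaks with a −log10 q-value of at least 5 and 2.33 points among the 10000 best peaks of each library. Against other genes with a coding TSS within 5 kb, a comparison chosen after seeing the data, it was 8.77 points.

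Peaks covered the TSS itself in 51, 49 and 50 members, and in 44 of them in 3 of 3 libraries, against 38.5% of all coding genes. Another 12 members were covered in no library, against 49.5% of all coding genes. At 5 kb the numbers were 67, 59 and 62 members, so every member had a peak within this distance in replicate 1, and 59 had one in 3 of 3 libraries, against 56.2%.

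**Figure D1:**
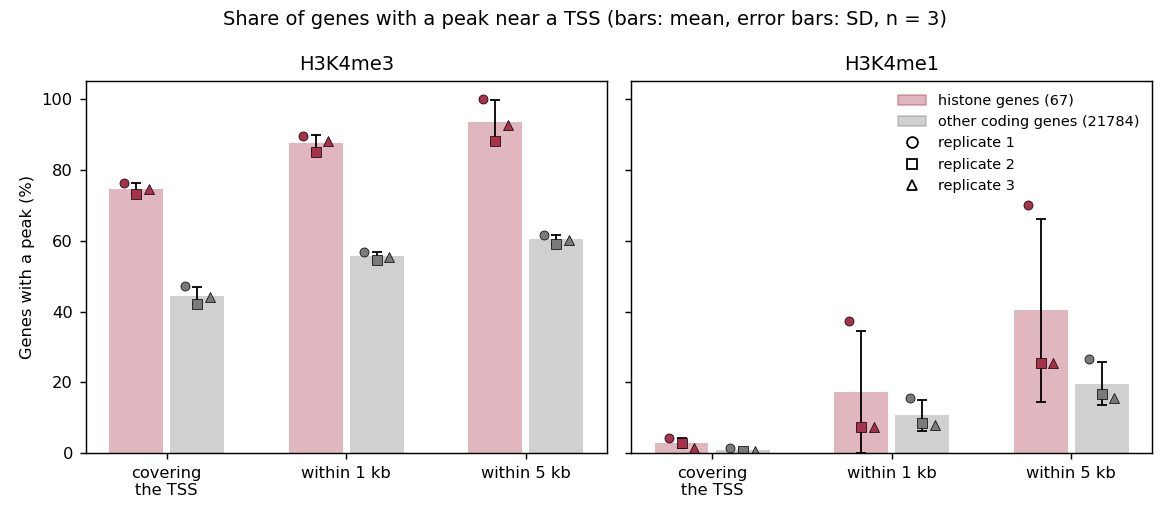
Share of genes (%) with a peak covering a TSS, within 1 kb or within 5 kb, for the 67 histone genes and the 21784 other coding genes. Bars are means, error bars SD and points the 3 libraries of each mark. For H3K4me3 the histone shares lie above the other shares at each distance, and for H3K4me1 replicate 1 lies far above replicates 2 and 3.

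Position around the TSS gave the same contrast. At the TSS, 73.2% ± 1.41 (SD, n = 3) of the 71 histone TSSs lay under an H3K4me3 peak, against 42.3% ± 2.46 (SD, n = 3) of other coding TSSs. At 3.5 kb upstream the histone share had fallen to 17.4% ± 2.93 (SD, n = 3), and at 5 kb upstream it was 28.6% ± 1.63 (SD, n = 3). Other TSSs stood at 4.88% ± 0.47 and 4.68% ± 0.54 (SD, n = 3) at these positions. The histone profile thus stayed above that of other genes at both distances and rose again away from the TSS.

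**Figure D2:**
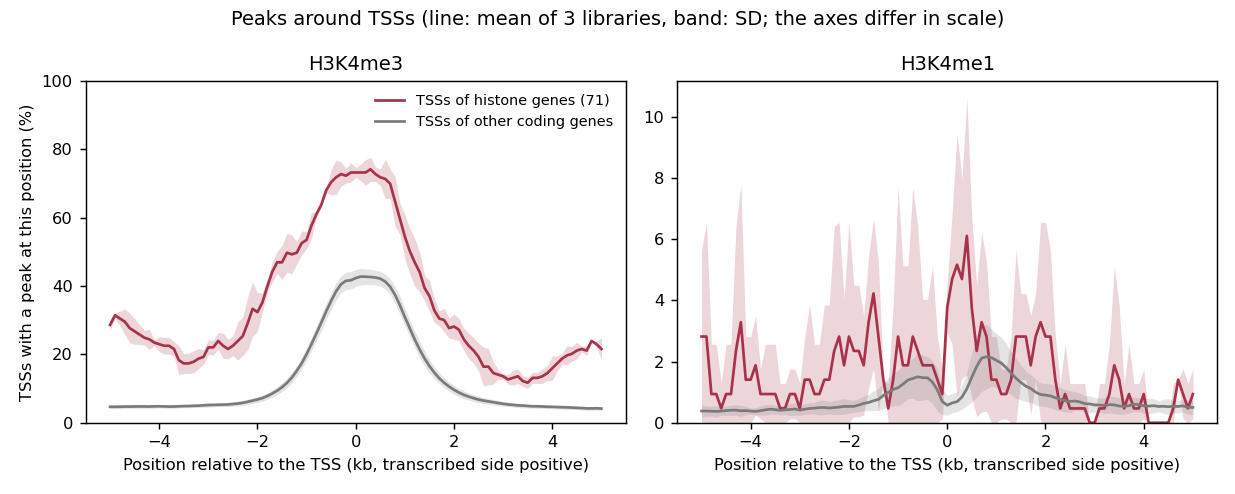
Share of TSSs (%) with a peak at each position from 5 kb upstream to 5 kb downstream, for the 71 TSSs of histone genes and the TSSs of other coding genes. Lines are means of 3 libraries and bands SD, and the axis of H3K4me1 ends far below that of H3K4me3. H3K4me3 over histone genes stands at 73.2% at the TSS and at 74.2% at 300 bp downstream, and upstream it falls to 17.4% at 3.5 kb and is 28.6% at 5 kb.

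Counts by histone class showed that each class was marked but that TSS cover differed in number. An H3K4me3 peak lay within 1 kb in 3 of 3 libraries at 4 of 6 H1, 15 of 18 H2A, 15 of 18 H2B, 12 of 12 H3 and 11 of 13 H4 genes. Cover of the TSS in 3 of 3 libraries was found at 4 of 6 H1, 8 of 18 H2A, 14 of 18 H2B, 9 of 12 H3 and 9 of 13 H4 genes. Where a peak lay within 1 kb of an H2A TSS without covering it, the gap was 35 to 455 bp with a median of 174.5 bp over 10 such cases. Hist1h2ae, for example, missed cover in replicate 1 by 35 bp and Hist1h2ag in replicate 3 by 39 bp, although the peak covered the divergent H2B partner in both cases.

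The members without a peak fell in 3 places. No H3K4me3 peak lay within 1 kb of a GENCODE TSS in any library at Hist1h2bq, Hist1h2ao, Hist1h2ap, Hist1h2br, Hist1h1d, Hist1h2ba and Hist1h2aa. The first 4 of these are H2A and H2B genes at the distal end of the 18-member block. Hist1h1d encodes a somatic H1. Hist1h2ba and Hist1h2aa encode the testis H2B and H2A, which are made in male germ cells.

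Hist1h2ba and Hist1h2aa, with their starts at chr13:23934156 and chr13:23934462, form a divergent pair 306 bp apart. The nearest H3K4me3 peak was 2647, 16582 and 19223 bp from the Hist1h2ba start in replicates 1, 2 and 3. In replicate 1 that peak was 681 bp wide with a fold enrichment (read as a ratio to the local background) of 3.07 and a −log10 q-value of 1.62. The third gene of the testis group, Hist1h1t, encodes the testis H1 and lies within the 29-member block. Its TSS was never covered, and the nearest peak lay 558, 1519 and 446 bp away, over or beside its neighbour Hist1h4c. None of the 3 testis genes thus had an H3K4me3 peak within 1 kb in 3 of 3 libraries, which 52.1% of all coding genes had. None had an H3K4me1 peak within 5 kb in any library. Such a peak was also absent at 18 of the 67 members and at 64.4% of other coding genes, so its absence is not particular to the testis genes.

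For Hist1h1d the call turned on the start that was used. GENCODE places it at chr13:23553262, and RefSeq places it 1770 bp further downstream, at 23555032. From the GENCODE start the nearest H3K4me3 peak was 1164, 1137 and 1167 bp away. At the RefSeq start a peak of 2036, 2246 and 2216 bp covered the TSS in replicates 1, 2 and 3, with fold enrichments of 7.58, 5.22 and 6.09. With RefSeq starts, 6 members instead of 7 had no peak within 1 kb in any library. Hist1h1d was the only member of the 62 with a RefSeq entry whose RefSeq starts were all more than 100 bp from the GENCODE start.

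The promoters of members at the extremes set marked and unmarked genes side by side. Each is the 200 bases before the RefSeq start (RefSeq, GRCm38.p6), with matches on either strand in capitals to the TATA box (searched as TATAAA), the CCAAT box (searched as CCAAT) and the octamer (searched as ATTTGCAT). Hist2h2ab (chr3:96219685-96219884, plus strand) lay under the H3K4me3 peak with the highest mean fold enrichment. Hist1h4h (chr13:23530844-23531043, plus strand) lay under the widest, and Hist1h1d (chr13:23554832-23555031, plus strand) was marked at this start alone. Hist1h2ba (chr13:23934157-23934356, minus strand) and Hist1h2bq (chr13:21810200-21810399, minus strand) had no peak. The window of Hist1h2br (chr13:21833543-21833742, plus strand) has exactly the letters of the Hist1h2bq window.
Hist2h2ab: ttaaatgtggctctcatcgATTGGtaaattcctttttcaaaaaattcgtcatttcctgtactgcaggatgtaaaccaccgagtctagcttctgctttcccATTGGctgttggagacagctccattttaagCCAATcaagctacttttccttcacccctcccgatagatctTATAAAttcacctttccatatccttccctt
Hist1h4h: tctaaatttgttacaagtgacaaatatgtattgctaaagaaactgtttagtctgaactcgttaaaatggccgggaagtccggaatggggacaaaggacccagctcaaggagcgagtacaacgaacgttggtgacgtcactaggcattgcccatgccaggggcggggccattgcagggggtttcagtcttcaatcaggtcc
Hist1h1d: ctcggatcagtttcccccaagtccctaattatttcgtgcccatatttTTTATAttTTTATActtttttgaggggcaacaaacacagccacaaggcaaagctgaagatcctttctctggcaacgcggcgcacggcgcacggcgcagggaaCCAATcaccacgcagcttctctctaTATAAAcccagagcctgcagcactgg
Hist1h2ba: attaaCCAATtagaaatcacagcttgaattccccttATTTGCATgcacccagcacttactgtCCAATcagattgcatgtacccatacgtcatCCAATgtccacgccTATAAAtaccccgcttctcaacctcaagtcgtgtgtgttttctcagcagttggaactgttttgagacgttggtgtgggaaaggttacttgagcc
Hist1h2bq: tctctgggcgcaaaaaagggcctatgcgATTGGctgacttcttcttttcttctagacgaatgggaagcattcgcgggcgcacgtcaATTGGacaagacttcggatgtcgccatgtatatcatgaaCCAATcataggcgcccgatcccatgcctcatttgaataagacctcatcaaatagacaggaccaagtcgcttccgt

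The unmarked Hist1h2ba window held all 3 motifs, and the printed window of Hist1h4h, under the widest peak, held none. Over the 250 bases before the start, TATAAA was found in 46.8% of the 62 members with a RefSeq promoter and in 12.4% of all 32817 promoters of the table. CCAAT was found in 82.3% of members and 33.8% of all promoters. It was present in all 6 H1, 18 H2A and 16 H2B promoters with an entry, but in 3 of 12 H4 promoters. ATTTGCAT was found in 22.6% of members and 1.6% of all promoters, and every match lay in an H2A or H2B promoter (7 of 18 and 7 of 16). Matches of different motifs were counted separately even where they overlap.

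Around the unmarked genes at the distal end of the 18-member block the genome is duplicated. All 50-base words within 1 kb of the TSSs of Hist1h2bq, Hist1h2ao, Hist1h2ap and Hist1h2br occur again elsewhere in the genome (100% repeated words). The adjacent H4 genes Hist1h4m and Hist1h4n had 93.2% and 92.2% repeated words. Hist1h4m had an H3K4me3 peak within 1 kb in replicate 1, a region of 225 bp at 510 bp from the TSS. Hist1h4n had one in replicates 1 and 3, of 699 and 209 bp at 12 and 23 bp from the TSS. In replicate 2 the nearest peak to all 6 genes was 7331 to 12673 bp away. Short reads from such copies cannot be placed on 1 copy, and how the authors treated them is not given in the sources used here.

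A milder form was seen on chromosome 3. Hist2h3c2, Hist2h2aa2, Hist2h2aa1 and Hist2h3c1 stand in an inverted duplication and had 55.5% to 78.1% repeated words. Each had an H3K4me3 peak within 1 kb in 3 of 3 libraries. Their TSSs were covered only in replicate 3, where peaks of 1516 and 3098 bp covered Hist2h2aa2 and Hist2h2aa1. In replicates 1 and 2 the peaks ended 102 to 332 bp short of these 4 TSSs.

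Over all members, 10 had at least 50% repeated words, and none of these was covered in 3 of 3 libraries, while 4 had a peak within 1 kb in 3 of 3. Of the 57 members with fewer repeated words, 44 were covered and 53 had a peak within 1 kb in 3 of 3 libraries. In the 18-member block, 15.4% to 17.4% of the words under H3K4me3 peaks and 37.5% to 38.4% of those outside were repeated. The order was the other way in the 29-member block, with 10.9% to 11.9% under peaks and 9.92% to 10.2% outside, and in the block of 5, with 18.4% to 23.3% under peaks and 2.16% to 5.04% outside. The part of repeated sequence in the missing peaks was not tested.

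Among the members with few repeated words, cover also lapsed at several places in the 29-member block. Hist1h4c was covered in replicate 1 by a peak of 2559 bp and missed by 73 and 187 bp in replicates 2 and 3. Hist1h4d, another H4 gene, was covered in replicates 1 and 3 by peaks of 1074 and 1166 bp. The H2A gene Hist1h2ac was covered in replicate 1 alone, and its divergent H2B partner Hist1h2bc in replicates 1 and 2. Hist1h2ab was covered in replicates 1 and 3 and its neighbour Hist1h3b in replicates 1 and 2. Fold enrichment of the peaks over Hist1h4c, Hist1h2ac, Hist1h2bc, Hist1h2ab and Hist1h3b was at most 4.59 where they were covered, against a median of 5.33 to 6.09 over all covered members. Over Hist1h4d it was 3.90 and 5.54. Hist1h2ae was covered in replicates 2 and 3 by peaks with fold enrichments of 5.31 and 4.85, and in replicate 1 a peak with a fold enrichment of 6.09 ended 35 bp from its TSS.

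**Figure D3:**
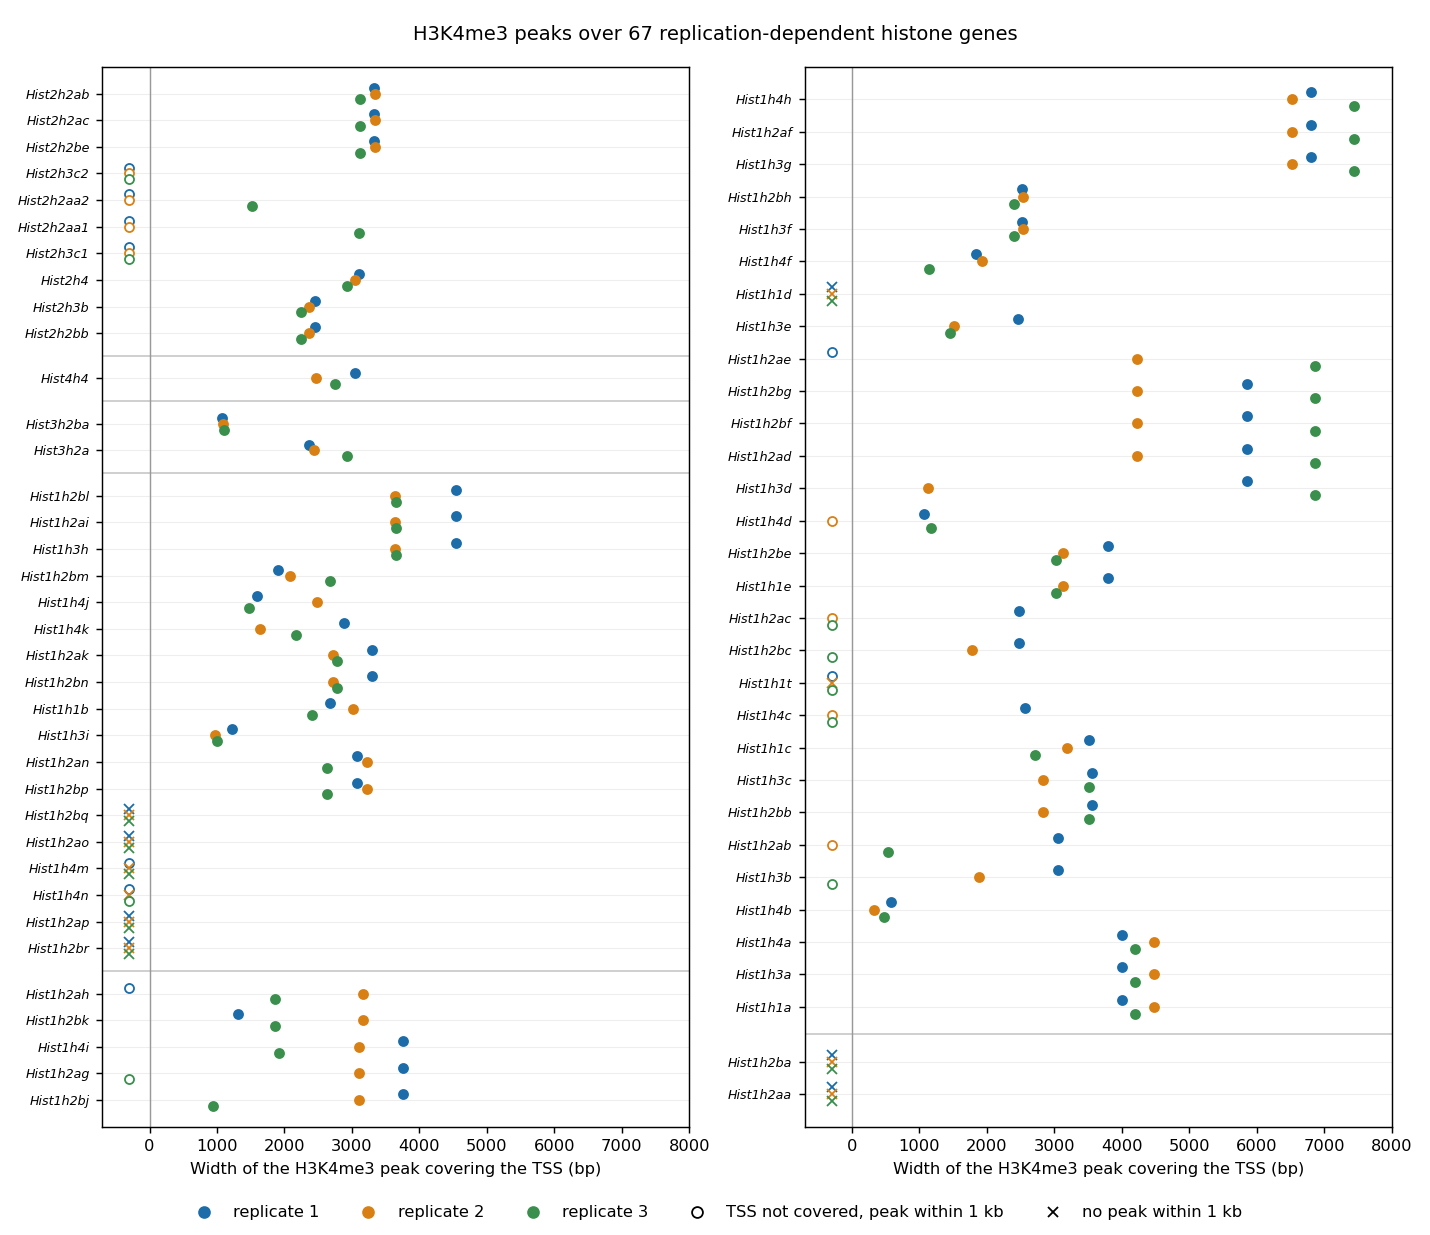
Width (bp) of the H3K4me3 peak covering the TSS of each of the 67 members, in genomic order with lines between blocks and 1 point for each replicate. Open circles mark a TSS that was not covered but had a peak within 1 kb, and crosses mark no peak within 1 kb. Crosses in all replicates stand at 7 members, and the widest peaks, over Hist1h4h, Hist1h2af and Hist1h3g, reach 7435 bp.

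To compare the marked genes, the peak over each TSS was described by its width and fold enrichment, so that a peak over several members counted for each of them. Median width over the covered members was 3295, 3107 and 2781 bp in replicates 1, 2 and 3, against 2100, 1905 and 1905 bp over other coding genes. The log2 ratio of these medians was 0.63 ± 0.08 (SD, n = 3; exact sign-flip p = 0.25, n = 3). Against other genes that also had a coding TSS within 5 kb it was 0.50. Peaks covering a lone member had median widths of 2134.5, 1901.5 and 1516 bp, and those covering several had 3438, 3171 and 3075 bp.

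Hist1h4h, Hist1h2af and Hist1h3g, which encode H4, H2A and H3, lay under the widest peak. It measured 6808, 6517 and 7435 bp in replicates 1, 2 and 3, a mean of 6920 ± 469 bp (SD, n = 3). Hist1h2bg, Hist1h2bf and Hist1h2ad followed, under a peak of 5859, 4221 and 6866 bp. All of these genes belong to the 29-member block, where mean widths ranged from 458 to 6920 bp.

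The narrowest covering peak lay over Hist1h4b, an H4 gene between much wider domains of the same block. It measured 582, 324 and 468 bp, a mean of 458 ± 129 bp (SD, n = 3). Next in order came the H3 gene Hist1h3i with 1215, 973 and 998 bp and the H2B gene Hist3h2ba with 1073, 1087 and 1110 bp, which differed by less than their spread. The H4 gene Hist1h4f had 1839, 1921 and 1147 bp, and the H3 gene Hist1h3e had 2463, 1507 and 1451 bp. The widths of these 2 genes also overlapped, and all values of Hist1h4b lay below those of the other 4 genes.

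Fold enrichment was slightly lower over histone genes than over other genes. Its median over covered members was 6.09, 5.35 and 5.33, against 6.69, 6.12 and 6.08 over other coding genes, and the log2 ratio was −0.17 ± 0.03 (SD, n = 3; exact sign-flip p = 0.25, n = 3). In broad lists fold enrichment was read from the file layout as an average over the peak, so that width and fold enrichment are not separate measures of the same region. Against other genes with a coding TSS within 5 kb the log2 ratio was −0.27.

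The highest mean fold enrichment lay over Hist2h2ab, Hist2h2ac and Hist2h2be, the H2A and H2B genes at the start of the chromosome 3 block. It was 10.5, 6.85 and 8.85, a mean of 8.74 ± 1.83 (SD, n = 3). The start of Bola1, a gene outside the histone family, also lies within 5 kb of these 3 genes. Hist3h2a on chromosome 11, which shares its annotated start with Trim17, had 9.27, 7.12 and 8.63. The H1 gene Hist1h1b had 7.07, 8.23 and 9.37. These 3 regions overlapped in their values and cannot be ranked. The peak over Hist1h1e and Hist1h2be, with 7.08, 8.67 and 7.61, overlapped them too.

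The lowest mean fold enrichment lay over Hist1h4b, with 4.06, 3.61 and 4.51 in replicates 1, 2 and 3. The divergent pair Hist1h2ak and Hist1h2bn had 5.01, 4.94 and 4.30. By class, the median of the mean fold enrichment was 6.77 for H1, 6.19 for H2A, 5.47 for H2B, 6.02 for H3 and 5.73 for H4 genes covered in 3 of 3 libraries. The ranges of the classes overlapped throughout.

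Merging of neighbours under shared peaks was frequent. The covered members lay under 30, 29 and 31 separate H3K4me3 peaks in replicates 1, 2 and 3, of which 14, 13 and 12 covered at least 2 members. The most members under 1 peak were 4, 4 and 5. Of the covered histone genes, 70.6%, 69.4% and 64.0% shared their peak with a TSS of another coding gene, against 21.6%, 21.8% and 21.8% of other covered genes, a difference of 46.3 ± 3.63 percentage points (SD, n = 3; exact sign-flip p = 0.25, n = 3). Against other genes with a coding TSS within 5 kb the difference was −4.30 points, so the direction turned.

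The domain of Hist1h2ae, Hist1h2bg, Hist1h2bf, Hist1h2ad and Hist1h3d showed how such borders shifted between libraries. In replicate 3, 1 peak of 6866 bp covered all 5 genes. In replicate 1 a peak of 5859 bp covered 4 of them and left Hist1h2ae out by 35 bp. In replicate 2 a peak of 4221 bp covered 4 genes including Hist1h2ae, and Hist1h3d had a peak of its own of 1124 bp. More stable domains covered Hist1h4a, Hist1h3a and Hist1h1a (4000, 4476 and 4192 bp) and Hist1h2bl, Hist1h2ai and Hist1h3h (4549, 3636 and 3654 bp). Hist1h1e and Hist1h2be shared a domain of 3800, 3134 and 3029 bp. The GENCODE start of Hist1h2be lies inside the Hist1h1e gene, on the same strand.

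Hist1h2be, an H2B gene, has a further RefSeq start at chr13:23585970, 35154 bp downstream of its GENCODE start. A separate H3K4me3 peak covered this start in each library, with widths of 3437, 5219 and 3704 bp. The gene therefore had annotated starts in 2 marked domains, and the domain at the GENCODE start also covers Hist1h1e.

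**Figure D4:**
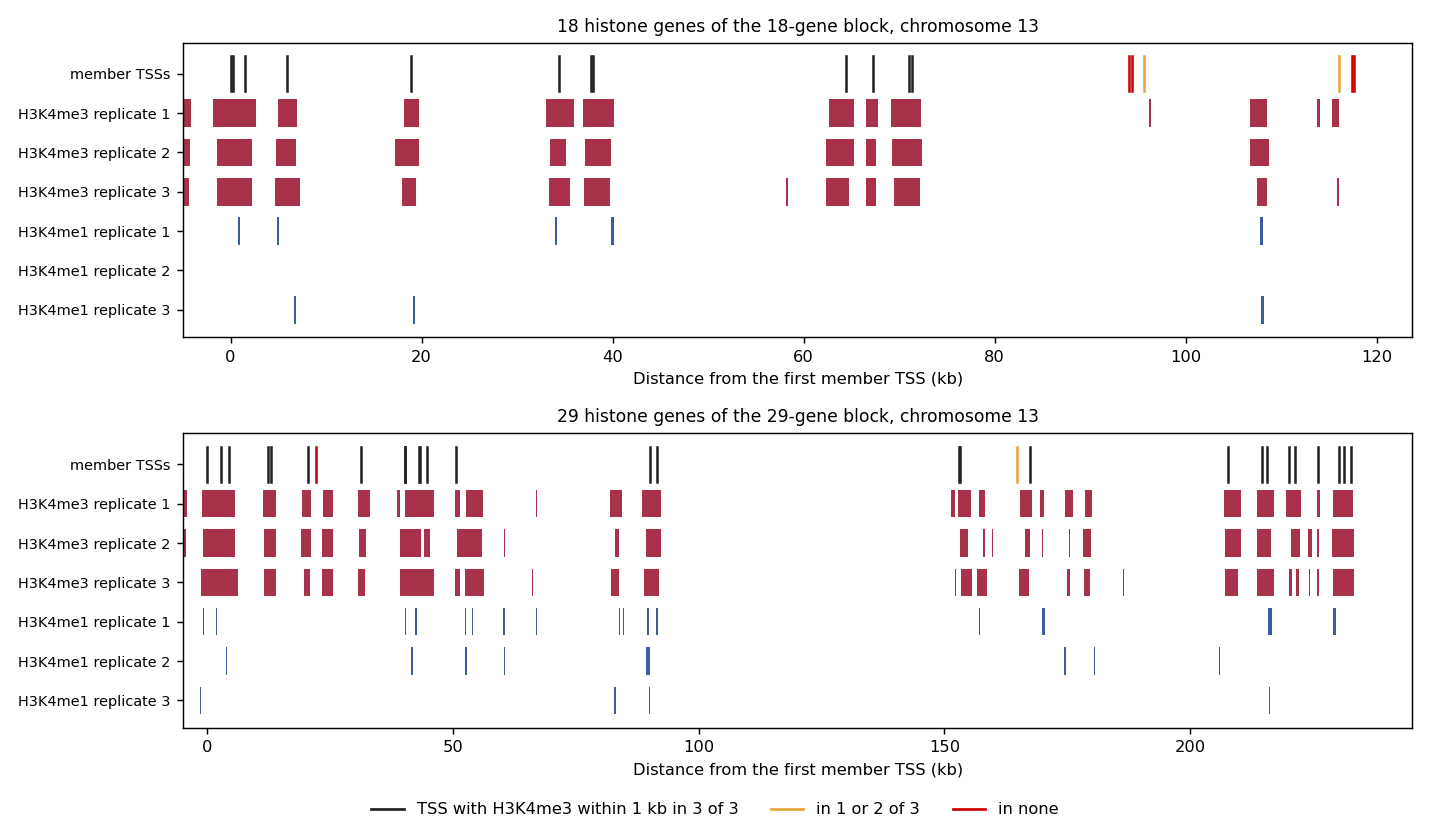
Peaks of the 6 libraries over the blocks of 18 and 29 members on chromosome 13, drawn to scale against the distance (kb) from the first member TSS and cut 5 kb outside the outer members. Ticks in the top row are member TSSs, coloured by the number of libraries with H3K4me3 within 1 kb. Domains recur at the same places in the 3 H3K4me3 libraries, with gaps at the distal end of the 18-member block, while H3K4me1 peaks are few and mostly differ between libraries.

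To compare merging among close neighbours, neighbouring TSSs up to 5 kb apart were compared as pairs. Spacing was not matched between the sets, with a median distance of 1188 bp for histone pairs and 444 bp for other pairs. Orientation differed as well, as 19 histone pairs and 453 other pairs had both genes on the same strand. The 39 histone pairs lay under 1 H3K4me3 peak in 53.8%, 51.3% and 48.7% of cases, and the 2120 pairs of other coding genes in 54.2%, 48.3% and 50.3%. The difference of 0.34 ± 2.36 percentage points (SD, n = 3) was smaller than its spread (exact sign-flip p = 1, n = 3). In 3 of 3 libraries 16 histone pairs were merged, against 44.7% of all pairs. A further 7 histone pairs were merged in 1 or 2 libraries and 16 in none.

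By distance the pairs differed in both directions. Up to 0.5 kb, 61.1% ± 4.81 (SD, n = 3) of 12 histone pairs were merged, against 80.5% ± 3.08 of 1096 other pairs. Between 1 and 2 kb, 60.4% ± 7.22 of 16 histone pairs were merged, against 25.1% ± 5.07 of 170 other pairs. Between 2 and 5 kb it was 2 of 10 histone pairs in each library, against 4.19% ± 1.48 of 628 other pairs, and no histone pair 5 to 10 kb apart was merged. Where both TSSs were covered, all pairs up to 0.5 kb were merged in both sets. Between 1 and 2 kb the shares were then 100%, 90.0% and 100% for histone genes and 92.9%, 83.3% and 80.4% for other genes.

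**Figure D5:**
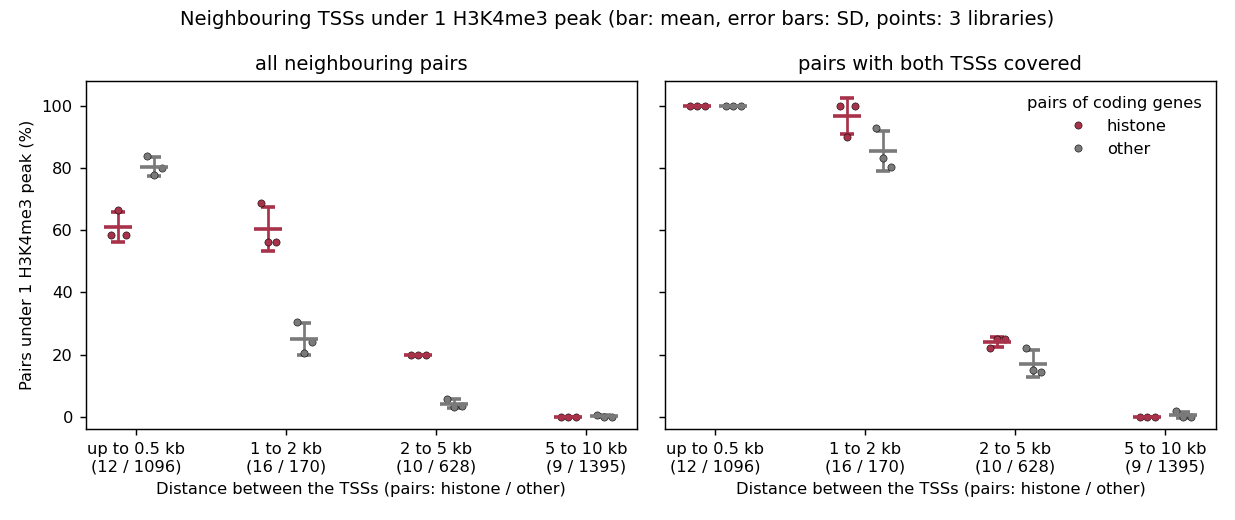
Share (%) of neighbouring TSS pairs under 1 H3K4me3 peak by the distance between the TSSs, for all pairs (left) and for pairs with both TSSs covered (right), with the numbers of histone and other pairs under each distance. Horizontal bars are means, error bars SD and points the 3 libraries, and the distance of 0.5 to 1 kb, with 1 histone pair, is not drawn. Histone pairs 1 to 2 kb apart were merged in 60.4% against 25.1%, a gap that narrows where both TSSs were covered.

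All 12 histone pairs up to 0.5 kb apart were divergent H2A and H2B pairs, 176 to 306 bp between starts, the arrangement in which both genes are read outward from 1 stretch of promoter. Of these, 5 were merged in 3 of 3 libraries, 4 in 1 or 2 and 3 in none. The 3 that were never merged were the testis pair and the 2 fully repeated pairs, Hist1h2bq with Hist1h2ao and Hist1h2ap with Hist1h2br. The longest pair merged in 3 of 3 libraries was Hist1h4h with Hist1h2af at 2856 bp. Of 22 pairs with both TSSs covered in 3 of 3 libraries, 16 were merged in 3 of 3 and 5 in none, and the closest of these 5, Hist1h1b with Hist1h3i, stood 2745 bp apart.

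Genes of another kind stood between the members of chromosome 13, whose blocks were separated by 201.8, 1487.8 and 170.5 kb. From the first to the last member there were 36 Vmn1r genes, which encode pheromone receptors of the vomeronasal organ, and 13 other coding genes. None of the Vmn1r genes had H3K4me3 within 1 kb in 3 of 3 libraries and 2 had it in any. Of the 13 other genes 9, among them Hfe and Abt1, had it in 3 of 3, against 52.1% of all coding genes.

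H3K4me1 was less frequent at histone genes and differed strongly between libraries. A peak lay within 1 kb of a TSS in 25, 5 and 5 members in replicates 1, 2 and 3, a mean of 17.4% ± 17.2 (SD, n = 3), against 87.6% ± 2.28 (SD, n = 3) for H3K4me3. The difference of 70.1 percentage points gave an exact permutation p-value of 0.1 (two-sided, n = 3 per mark), the smallest this design allows. Without H3K4me1 replicate 1 it was 80.1 points, and among the 10000 best peaks 24.4 points. The marks stood in the same order at other coding genes. There H3K4me3 lay within 1 kb in 56.8%, 54.4% and 55.4% and H3K4me1 in 15.7%, 8.64% and 7.91%. A gap between the marks is thus not particular to histone genes.

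The share of genes with H3K4me1 within 5 kb was compared with that of other genes. The shares were 70.1%, 25.4% and 25.4% of members, against 26.6%, 16.8% and 15.6% of other genes, and the difference of 20.7 ± 19.9 points (SD, n = 3) was about as large as its spread (exact sign-flip p = 0.25, n = 3). Without replicate 1 it was 9.20 points. In 3 of 3 libraries 8 members had an H3K4me1 peak within 5 kb, against 6.17% of all coding genes, and these were Hist3h2a, Hist1h4i, Hist1h2ag, Hist1h2bj, Hist1h4h, Hist1h2af, Hist1h2be and Hist1h1e. Neighbours among them can count the same peaks, and the peaks need not recur at 1 position. Of the H3K4me1 peaks within 5 kb of a member, 1, 1 and 2 in replicates 1, 2 and 3 overlapped H3K4me1 peaks in all 3 libraries. At 1 kb the difference was 21.6 points in replicate 1 and −1.18 and −0.45 points in replicates 2 and 3 (exact sign-flip p = 1, n = 3). Against other genes with a coding TSS within 5 kb, a comparison chosen after seeing the data, the difference at 5 kb was 10.2 points (exact sign-flip p = 0.5, n = 3).

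In any library 28 members had an H3K4me1 peak within 1 kb, against 23.3% of all coding genes, and 5 had it in at least 2 of 3, against 7.56%. Hist1h4i and Hist1h2be had it in 3 of 3 libraries, against 1.49%. Around Hist1h2be the peaks measured 435, 785 and 238 bp, overlapped each other and lay 94, 0 and 0 bp from the TSS, with fold enrichments of 4.21, 7.50 and 3.65. This TSS, chr13:23621124, lies inside the Hist1h1e gene (chr13:23620629-23622558) on the same strand, so these peaks cannot be assigned to either gene. Near Hist1h4i they measured 198, 443 and 187 bp at 350, 0 and 217 bp from the TSS. At the further RefSeq start of Hist1h2be, chr13:23585970, an H3K4me1 peak lay within 1 kb in replicate 1 alone. Hist1h2bm and Hist1h2bb had a peak in replicates 1 and 3, and Hist1h2af in replicates 1 and 2.

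The other 23 members had H3K4me1 within 1 kb in 1 library, 20 of them in replicate 1. On chromosome 3 these were Hist2h2ac, Hist2h2be, Hist2h2aa2, Hist2h2aa1, Hist2h4 and Hist2h2bb, and on chromosome 11 Hist3h2ba. In the 18-member block they were Hist1h2bl, Hist1h2ai, Hist1h3h and Hist1h4k, and in the block of 5 Hist1h2ag and Hist1h2bj. In the 29-member block they were Hist1h4h, Hist1h2ae, Hist1h2bg, Hist1h2bf, Hist1h2ad, Hist1h1e and Hist1h4a. Hist4h4 and Hist1h3g had a peak in replicate 2 alone and Hist1h4j in replicate 3 alone.

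The H3K4me1 peaks within 5 kb of a member numbered 29, 8 and 8, and 3, 2 and 1 of them covered a TSS. Of these peaks, 22, 7 and 7 overlapped an H3K4me3 peak in 3 of 3 libraries, which is 75.9%, 87.5% and 87.5%. Around other coding genes the shares were 74.7%, 74.7% and 76.7%, a difference of 8.25 ± 6.22 points (SD, n = 3; exact sign-flip p = 0.25, n = 3). Fold enrichment of the histone peaks had medians of 4.91, 4.50 and 4.02, against 4.91, 5.23 and 5.12 over all H3K4me1 peaks of the library.

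Genes related to the members by function were marked in most cases. The 11 replication-independent histone genes are mostly expressed also outside S phase, from polyadenylated mRNAs. Of these, 9 had H3K4me3 within 1 kb in 3 of 3 libraries, against 52.1% of all coding genes. H1fx had it in 2 libraries and H2afy2 in 1. The 6 covered in 3 of 3 libraries, among them H2afx and H2afz, had a median width of 2728.5 bp, against 3000.3 bp for the 44 covered replication-dependent genes and 2041 bp for all 8405 coding genes covered in 3 of 3.

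Of 16 genes listed for the transcription and processing of histone mRNA, Cpsf3l was not found by this symbol. The other 15 all had H3K4me3 within 1 kb in 3 of 3 libraries, against 52.1% of all coding genes. They include Npat, the activator of histone gene transcription in S phase, Slbp, which binds the stem-loop, and Lsm10 and Lsm11 of the U7 particle that cuts the mRNA end. Npat had a covering peak of 3490 bp in mean width, and Slbp one of 4523 bp.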

How the data were processed

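Peak lists of 6 Mint-ChIP libraries from splenic GC B cells of WT mice, 3 per mark, were used as deposited, 1 list per library without pooling. The submitters' processing notes name BWA, Picard, HOMER, Genrich and mm10; the peak caller, its settings, the control and the treatment of repeated reads are not given in the sources used here. Per the file layouts, H3K4me3 lists are broad and H3K4me1 lists narrow. By the same layouts, the deposited values were read as a fold enrichment (a linear ratio to the local background), a −log10 p-value and a −log10 q-value. They were taken as averages over a broad peak or as values at the summit of a narrow one. This reading rests on the layouts alone. The deposited score repeats the −log10 q-value, and this score was not used.

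The build was checked against the GRCm38.p6 chromosomes. GENCODE M21 gave 41438 TSSs of 21851 coding genes, the mitochondrial chromosome left out. Peaks were counted as covering a TSS (at least 1 bp), within 1 kb or within 5 kb; of several peaks over a gene the widest was used. RefSeq promoters matched 62 of 67 members. Repeated words are the share of 50-base words within 1 kb of a TSS that occur more than once on the 21 chromosomes, on either strand.

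Marks were compared by two-sided exact permutation over the 20 assignments of 6 libraries (smallest p-value 0.1), and histone with other genes by two-sided exact sign-flips over 3 libraries (smallest p-value 0.25). Members named are those without H3K4me3 within 1 kb in any library or with it in 1 or 2, the 5 widest and 5 narrowest covering peaks, the 5 highest and 3 lowest in fold enrichment, those with H3K4me1 within 1 kb, and list members that depart from their list; partly covered members were added after their values were seen. Members and lists were chosen with earlier results of these data known. Calculations used Python 3.11.15, numpy 2.4.6, pandas 2.3.3 and scipy 1.17.1, and were tested on simulated peaks.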

Additional observations from a re-analysis of the deposited data

How the results depend on the processing

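Of the 84 alternative values, 74 were like the value reported. They kept its direction or, for the number of members without H3K4me3 within 1 kb, stayed at 6 to 8. Among them was every alternative for the H3K4me3 and H3K4me1 shares, the widths and the fold enrichments, taken as means over libraries. No test here can pass 0.05, so this says nothing about significance. The number of members without H3K4me3 within 1 kb in any library, 7 as reported, was 12 when the TSS had to be covered, 0 at 5 kb, 20 at a −log10 q-value of at least 5 and 34 with the 10000 best peaks. It was 3 among members with under 50% repeated words, an alternative chosen after seeing the data, as were the use of RefSeq starts and the comparison of the H3K4me3 and H3K4me1 shares with genes that have a coding TSS within 5 kb. The difference in shared peaks turned to −4.30 percentage points against other genes with a coding TSS within 5 kb. The difference in merged pairs, 0.34 points, was −8.55 for pairs up to 2 kb apart, −8.56 at the stricter q-value and −15.3 with the 10000 best peaks, and without 1 replicate it ranged from −0.98 to 1.29. It was 10.9 for pairs up to 10 kb apart and 9.66 with few repeated words. The causes of these shifts were not tested.

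The H3K4me1 difference at 5 kb ranged from 9.20 to 26.7 points without 1 replicate, the lowest value being that without replicate 1, and was 3.02 at the stricter q-value. At 1 kb the mean difference was 6.65 points, with 21.6, −1.18 and −0.45 points in replicates 1, 2 and 3. Permuting the marks within replicate number, as a replicate block, left the difference between the marks at 70.1 points with an exact permutation p-value of 0.25 (n = 3), the smallest possible. The deviations of same-numbered libraries of the 2 marks had correlations across genes of −0.0084, −0.0031 and −0.0030. For libraries with different numbers the correlations ranged from −0.0056 to 0.0085, so this check cannot tell whether same-numbered libraries share a sample. The sources used here state no pairing, and the numbers were not taken as pairs. Without read totals, an absent peak cannot be told from low depth.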
